A study of Mus musculus with 6 samples.

Results

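The genes described here are those of the Wnt pathway, measured on expression arrays in tumours of the mouse mammary tumour line 4T1 with or without knockdown of Bptf. They were chosen by name: the Wnt ligands, the Frizzled (Fzd) receptors and co-receptors, the secreted antagonists of the Sfrp and Dkk families with Frzb and Wif1, the R-spondins, and named genes of signal relay, transcription and response. The arrays measured 12393 genes through 20380 probe sets that name 1 gene, and 56 of these genes are members, with 86 probe sets. Under the listed symbols 54 genes with 83 probe sets were found, and Wisp1 and Wisp2 were found under their current symbols Ccn4 and Ccn5, with 3 probe sets. Tcf7 was not analysed here. The series holds 6 tumours with 1 array each: 3 Control tumours and 3 Bptf KD tumours, described per the labels as biological triplicates. Both kinds of cells were 4T1 cells, placed at 10000 cells in the fourth mammary fat pad of mice labelled Ifrg2r -/- (NSG), a host without T, B or natural killer cells of its own, and the tumours were taken on day 21. The Bptf KD cells carried short hairpin RNAs against Bptf, the largest subunit of the chromatin remodelling complex NURF, brought in by the retrovirus MMLV. The sources used here do not give what the Control cells carried, whether the KD cells were 1 clone or a pool, or the age of the animals.

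Wnt proteins are secreted, lipid-modified ligands. In the canonical branch they bring together a Frizzled receptor and the co-receptor Lrp5 or Lrp6, which halts the destruction complex built on Axin and Apc, so that beta-catenin (Ctnnb1) builds up and acts with Lef/Tcf factors on target genes such as Axin2. Sfrp proteins, Frzb and Wif1 bind the ligands outside the cell, Dkk proteins bind the co-receptors, and R-spondins raise receptor levels. In the mammary gland the pathway is known for its part in stem cell upkeep and in tumours driven by Wnt1.

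Of the 30 tested members 2 were called lower in the Bptf KD tumours, where 0.660% of all genes were. These were the secreted antagonists Sfrp2, by 4.52-fold, and Sfrp4, by 3.34-fold. Sfrp1, of the same family, differed by -0.93 on the log2 scale without passing the threshold, and Sfrp5 by 0.04. The receptor gene Fzd4 had a difference of -0.96 and did not pass either. The ligands, the destruction complex, beta-catenin and the feedback gene Axin2 gave no call. Neither the Sfrp2 nor the Sfrp4 call held when control 3 or any 1 of the KD tumours was left out. Those fits called 0 to 10 of all genes lower, against 61 with all tumours. The target gene Bptf itself was not called (limma adjusted p = 0.371). Values are log2 expression levels made with RMA, each difference is Bptf KD minus Control, and a call is an adjusted p under 0.05 by limma with Benjamini-Hochberg adjustment over 9248 genes.

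The sequences just upstream of the start sites are shown for Sfrp2, the called gene, for Fzd4, the receptor gene with the lowest difference, and for Axin2, the classic feedback target of the pathway. They are the 250 bases before the annotated start, from RefSeq on GRCm38.p6, at chr3:83766071-83766320, chr7:89404116-89404365 and chr11:108920099-108920348, all on the + strand and written 5′ to 3′. Of the 56 genes, 36 have such a window in the table, and Sfrp1, Sfrp4 and Ccn5 are not among them. Capitals mark the motifs searched on either strand: the TCF/LEF core CTTTGA, the TATA box TATAAA, the CCAAT box CCAAT and the GC box GGGCGG.
Sfrp2: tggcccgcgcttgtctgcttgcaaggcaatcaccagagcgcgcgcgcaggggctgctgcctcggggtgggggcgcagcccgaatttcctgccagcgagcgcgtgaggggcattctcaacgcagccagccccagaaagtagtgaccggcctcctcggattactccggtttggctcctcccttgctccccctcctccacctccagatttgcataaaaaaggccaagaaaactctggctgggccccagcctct
Fzd4: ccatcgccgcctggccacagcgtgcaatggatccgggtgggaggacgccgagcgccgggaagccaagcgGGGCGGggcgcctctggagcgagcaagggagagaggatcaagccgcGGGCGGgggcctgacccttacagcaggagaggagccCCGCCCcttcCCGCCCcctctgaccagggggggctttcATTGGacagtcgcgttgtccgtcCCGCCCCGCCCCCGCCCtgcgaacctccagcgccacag
Axin2: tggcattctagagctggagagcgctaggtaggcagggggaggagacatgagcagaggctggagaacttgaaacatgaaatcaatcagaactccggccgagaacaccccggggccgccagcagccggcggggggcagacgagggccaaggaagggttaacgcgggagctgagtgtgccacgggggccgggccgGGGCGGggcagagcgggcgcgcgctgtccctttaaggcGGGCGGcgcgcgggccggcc
None of the 4 motifs was found in the Sfrp2 window. The Fzd4 window held 7 GC boxes and 1 CCAAT box, and the Axin2 window 2 GC boxes. The TCF/LEF core was in none of these 3 windows, in 7 of the 44 windows of members and in 13.8% of all 32851 windows of that length. GC boxes were in 31 of the 44 windows of members and in 32.7% of all. The windows of Sfrp2, Fzd4 and Axin2 held 16, 25 and 24 CpG pairs, against a median of 6 over all windows. GC boxes that share a base were each counted, and a match is only a run of letters.

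The array data set the limits within which the members can be read. RMA values carry no detection call, so a gene was tested only if its brightest probe set had a mean over the 6 arrays above 6.09, the lowest 30% of all probe sets, called the dim level below. Of the 56 members 30 passed and 26 were dim, with single values from 3.64 to 6.45. The target gene Bptf read 10.69, 9.77 and 10.59 in controls 1 to 3 and 9.60, 9.56 and 9.99 in the Bptf KD tumours on its brightest probe set, a difference of -0.63 (limma adjusted p = 0.371), and the middle control lay among the KD tumours. Without that control the difference was -0.92, and Bptf passed the threshold (adjusted p = 0.0305). On the other 3 probe sets that control was below every KD tumour, so it is written here as the tumour labelled control 2, and all directions below include it among the controls. In that tumour 8.66% of genes were 2-fold or more away from the mean of its group mates, against 0.443% to 2.51% in the other 5 tumours. Of the 30 tested members 1 was so there and 0 in each of the other 5. Without it limma called 233 genes lower and 179 higher.

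Of the 30 tested members limma called 2 lower and 0 higher. Over all 9248 genes, 0.811% were called (75 genes), 0.660% lower and 0.151% higher (61 and 14 genes). The groups did not overlap in 5 members that were lower and 2 that were higher, or 16.7% and 6.67% of the 30, where 8.17% and 11.8% of all genes did so. The median difference was -0.08 over the tested members and 0.06 over all genes tested, and the members' median turned positive with the probe set of largest SD (0.037) and without the tumour labelled control 2 (0.0017) or control 3 (0.013). The median over all genes in those settings is not given here. With all tumours kept, the difference was negative in 19 of the 30 tested members. Without the tumour labelled control 2, 4 members were called lower (Sfrp1, Sfrp2, Sfrp4 and Fzd4, the last with KD values below the dim level) and 0 higher, beside 2.52% and 1.94% of all genes.

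**Figure D1:**
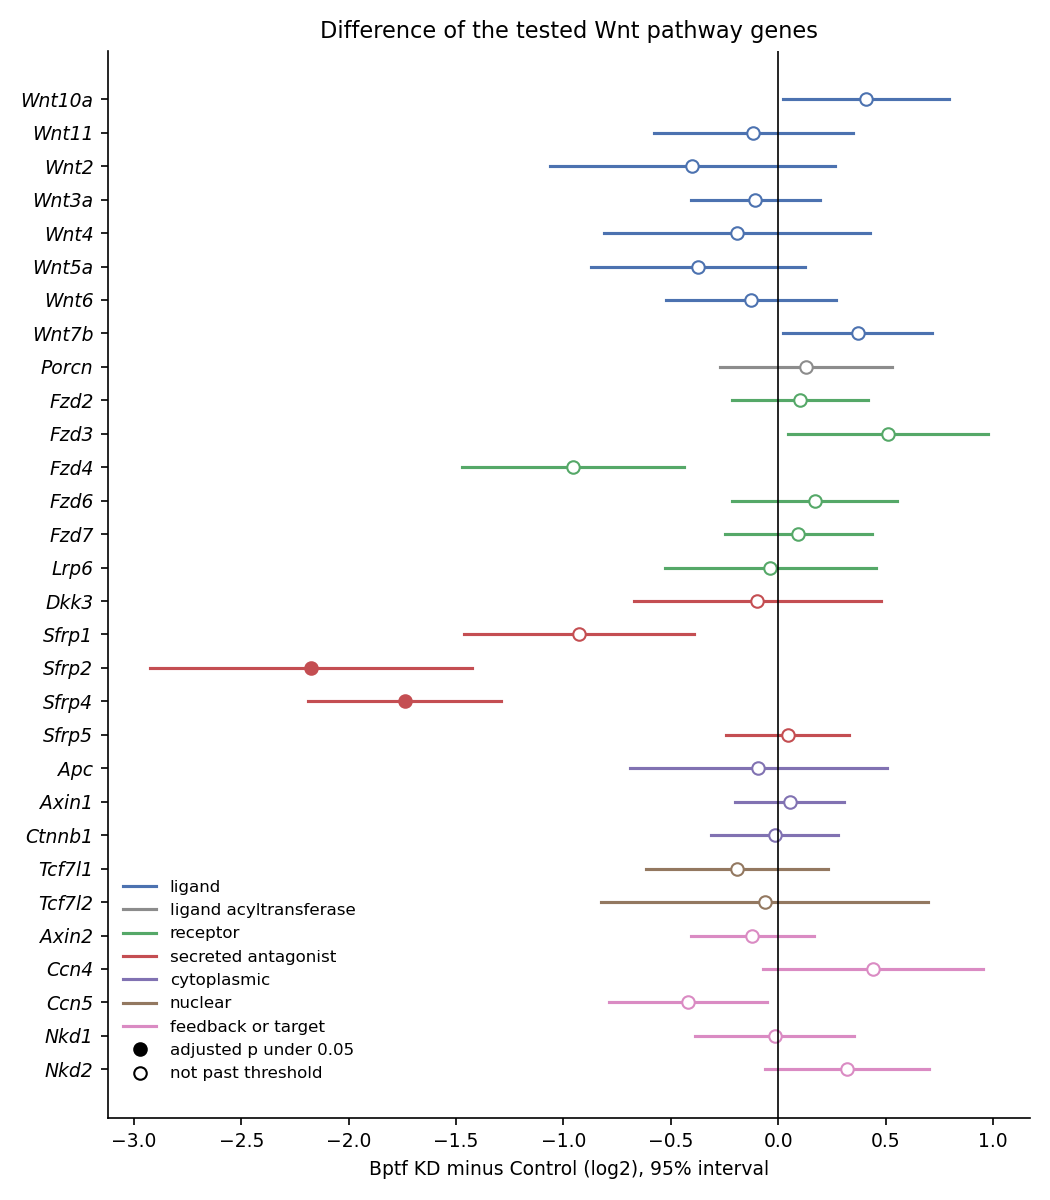
Difference between Bptf KD and Control (log2) for the 30 tested Wnt pathway genes, with 95% intervals from limma, coloured by role and with filled points for an adjusted p under 0.05. Sfrp2 (-2.18) and Sfrp4 (-1.74) are the filled points, and Sfrp1 (-0.93) and Fzd4 (-0.96) lie next to them with open points.

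Of 19 Wnt ligand genes, 8 were tested and limma called 0 of them, while unadjusted p-values under 0.05 were found for 2 higher and 0 lower (7.66% and 5.82% of all genes). Wnt7b, a ligand made by epithelia and able to act through beta-catenin, read 10.58, 10.32 and 10.41 in controls 1 to 3 and 10.58, 10.92 and 10.92 in the KD tumours. The groups met at 10.58, and the difference was 0.37 (95% interval 0.02 to 0.72; limma adjusted p = 0.348). The second Wnt7b probe set differed by 0.36, and there the groups did not overlap.

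Wnt10a, a canonical ligand of skin and its appendages, read 6.82, 6.72 and 6.95 in controls and 7.26, 7.49 and 6.97 in KD tumours. All 3 KD tumours were above all controls, KD tumour 3 by only a little, and the difference was 0.41 (95% interval 0.02 to 0.80; limma adjusted p = 0.348). Wnt5a, the main ligand of the non-canonical branch, read 7.54, 7.26 and 7.93 in controls and 6.96, 7.44 and 7.21 in KD tumours. These groups overlapped, with a difference of -0.37 (95% interval -0.87 to 0.12; limma adjusted p = 0.515) and of -0.39 on the second probe set.

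Wnt2, Wnt4 and Wnt11 were highest in the tumour labelled control 2. Wnt2 was at 7.59 there and at 6.47 and 6.77 in the other controls, against 6.45 to 6.65 in KD tumours, and its difference of -0.40 became -0.08 without that tumour. Wnt4, a ligand needed for side branching of the mammary gland, had 7.69 there and 6.69 to 7.02 in the other 5 tumours. Its difference moved from -0.19 to 0.11, and that of Wnt11 from -0.12 to 0.09. Markers of other tissues stood high in the same tumour: the 4 tested keratinocyte markers had a mean of 10.3 there and 7.17 to 7.56 in the other 5, and the muscle list 11.9 against 6.11 to 9.53. The part of those cells in the ligand values was not tested. Wnt3a and Wnt6 were also highest in the tumour labelled control 2, at 6.99 and 6.83. Both overlapped between groups, and their differences moved from -0.11 to -0.04 and from -0.13 to -0.01 without that tumour.

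The other 11 ligand genes were dim in these tumours: Wnt1, Wnt2b, Wnt3, Wnt5b, Wnt7a, Wnt8a, Wnt8b, Wnt9a, Wnt9b, Wnt10b and Wnt16. When limma was run with no filter on dim probe sets, 1 of the 11 had an unadjusted p under 0.05 and was lower, where 5.87% of 12393 genes were so. The groups did not overlap in 2 of the 11, both lower (Wnt16 and Wnt10b), and in 0 higher, where 8.64% and 9.92% of 12393 genes were so. Wnt16 was at 5.60, 6.25 and 5.94 in controls and 5.54, 5.47 and 5.34 in KD tumours, with a difference of -0.48 (limma adjusted p = 0.336). Porcn, the enzyme that adds the lipid to Wnt proteins, differed by 0.13 with overlapping groups (95% interval -0.27 to 0.53).

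Of 13 receptor genes, 6 were tested, and none was called (limma, 0 of 6), and unadjusted p-values under 0.05 were found for 1 lower and 1 higher of the 6, where 5.82% and 7.66% of all genes were so. Fzd4, a receptor for Wnt ligands and for norrin that is known in blood vessels, read 6.65, 7.30 and 6.68 in controls and 5.65, 6.04 and 6.07 in KD tumours. All controls were above all KD tumours, and every KD value lay below the dim level, so the gene was tested only through its control values. The difference was -0.96 (SE 0.22; limma adjusted p = 0.126). Its adjusted p was 0.0486 without the tumour labelled control 2 (-0.75) and 0.00967 with array weights (-0.83), which carry the same limit on the KD values. Over all 9248 genes limma called 233 lower and 179 higher without that tumour. With array weights it called 690 and 986, against 61 and 14 with all tumours and no weights. With any 1 other tumour left out Fzd4 was not called (limma adjusted p from 0.13 to 0.376), in fits that called 0 to 57 genes lower. Its other probe set, at 3.82 to 4.07 in all 6 tumours, was dim.

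Endothelial markers were read beside Fzd4, since the receptor is known in that cell type. Of the 7 markers 3 were negative and 4 positive, with a median difference of 0.11 (-0.09 without the tumour labelled control 2), and their summed level on the linear scale was 1164 to 1663 in controls and 1412 to 1594 in KD tumours. The markers did not move one way: the groups were apart and lower for Tek (-1.30; limma adjusted p = 0.00986) and Vwf (-0.98; adjusted p = 0.129), and apart and higher for Cldn5 (0.76; adjusted p = 0.199). Tek lay below the dim level in all 3 KD tumours (5.63 to 5.66), so like Fzd4 it was tested only through its controls. Without the tumour labelled control 2, Vwf and Cldn5 also passed the threshold (adjusted p = 0.0229 and 0.0214). That fit called 233 genes lower and 179 higher. The groups overlapped for Pecam1 (0.11), Cdh5 (0.18), Emcn (0.44) and Kdr (-0.24). The part of these cells in the Fzd4 difference was not tested.

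Fzd3, a receptor of the planar polarity branch, read 6.17, 6.69 and 6.38 in controls and 6.77, 7.24 and 6.76 in KD tumours. The KD tumours were above all controls, with a difference of 0.51 (95% interval 0.04 to 0.98; limma adjusted p = 0.339), but of 0.13 with overlapping groups on the other probe set above the dim level. Fzd6 differed by 0.17, Fzd2 by 0.10 and Fzd7 by 0.09, with groups that overlapped in each. The co-receptor Lrp6 differed by -0.04 (95% interval -0.53 to 0.46). It was lowest in the tumour labelled control 2, at 8.97, and differed by -0.26 without that tumour (limma adjusted p = 0.201).

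Of the 7 dim receptor genes, Ror2, a receptor tyrosine kinase for Wnt5a, read 5.78, 6.41 and 6.45 in controls and 5.61, 5.86 and 5.66 in KD tumours. Its control mean of 6.21 was above the dim level, and its mean over the 6 arrays, 5.96, was below. Control 1 lay within the KD range, and with no filter the difference was -0.50 (limma adjusted p = 0.369). Lrp5, the second co-receptor, differed by 0.41 in the other direction with overlapping groups (limma adjusted p = 0.498). Its KD mean of 6.15 was above the dim level and its control mean of 5.75 below. The R-spondin genes Rspo1 and Rspo2 were both dim, at differences of -0.03 and -0.08.

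**Figure D2:**
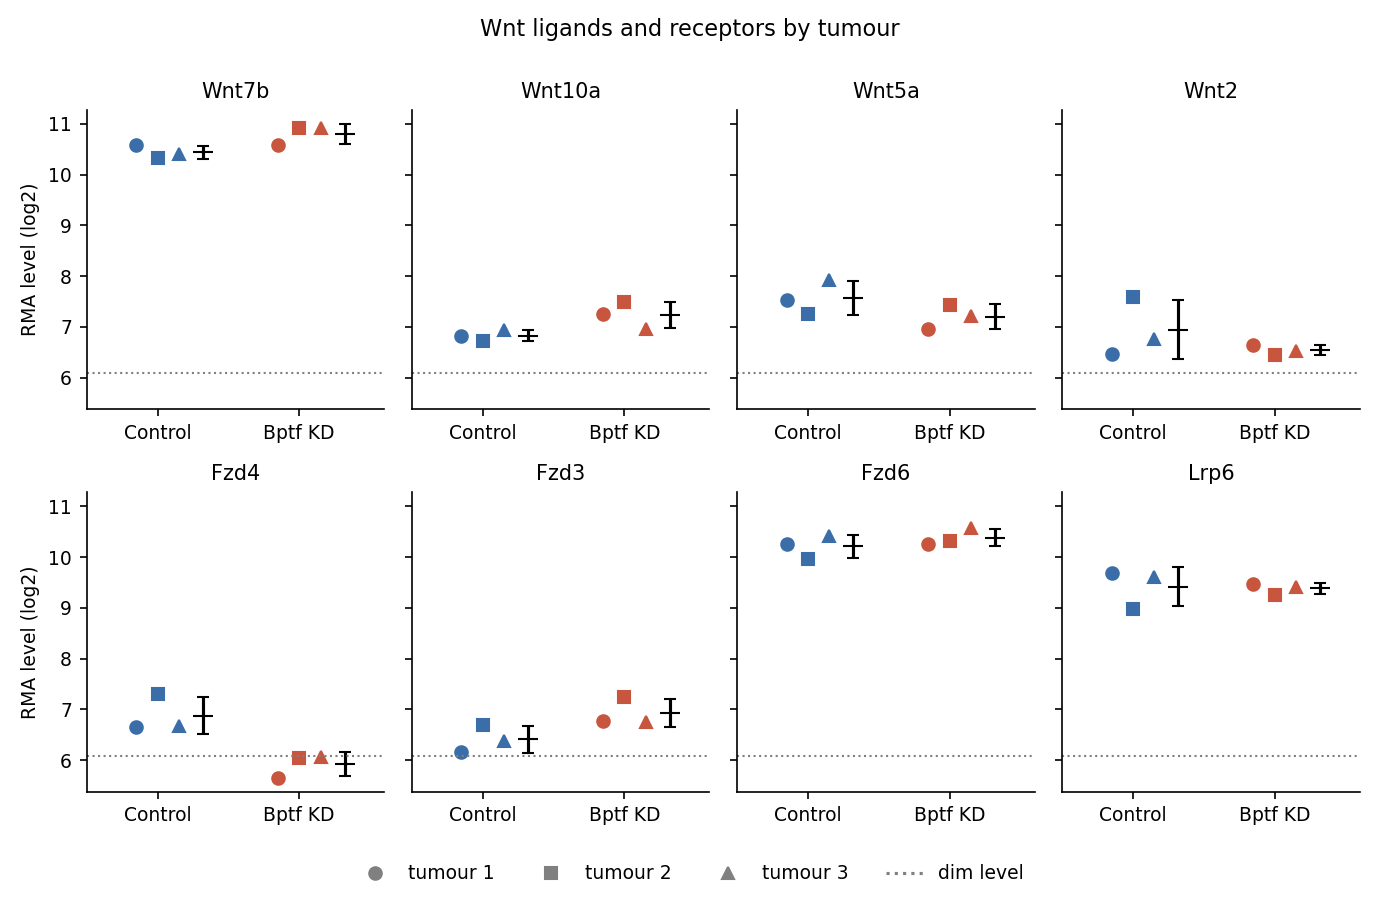
Log2 RMA level of 4 ligand genes (top) and 4 receptor genes (bottom) in each tumour, with the group mean and SD in black and the dim level as a dotted line. Only Wnt10a, Fzd4 and Fzd3 of these 8 have groups that do not overlap, and the square of the Control group, the tumour labelled control 2, stands above the other controls for Wnt2.

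The secreted antagonists held both calls. Of 10 such genes 5 were tested, with 2 called lower and 0 higher by limma, where 0.660% of all genes were called lower and 0.151% higher. The groups did not overlap in 3 of the 5, all lower, where 8.17% of all genes were apart and lower. Sfrp2, which binds Wnt ligands through a Frizzled-like cysteine-rich domain, read 9.35, 10.02 and 10.62 in controls 1 to 3 and 7.86, 7.57 and 8.03 in KD tumours 1 to 3. Every KD tumour was below every control by more than the spread within either group. The means were 10.00 ± 0.64 and 7.82 ± 0.23 (SD, n = 3 each), a difference of -2.18 (SE 0.32; limma adjusted p = 0.0434).

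Sfrp4, of the same family and known in bone and uterus, read 8.59, 9.14 and 9.15 in controls and 7.38, 7.23 and 7.05 in KD tumours. Here too the groups were far apart, with means of 8.96 ± 0.32 and 7.22 ± 0.17 (SD, n = 3 each) and a difference of -1.74 (SE 0.19; limma adjusted p = 0.0165). For both genes the exact two-sided permutation p was 0.1, the smallest that 3 tumours against 3 allow. Each has 1 probe set, so no second reading of it was at hand.

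Both calls ended when control 3 or any 1 of the KD tumours was left out. Calls fell over all genes too, from 61 lower with all tumours to 10 without control 3. Without KD tumours 1, 2 and 3 limma called 2, 5 and 0 genes lower. For Sfrp2 the limma adjusted p was 0.0828 without control 3 and 0.176, 0.188 and 0.161 without KD tumours 1, 2 and 3, at differences from -1.87 to -2.28. For Sfrp4 it was 0.0736 without control 3 and 0.0818, 0.104 and 0.110 without KD tumours 1, 2 and 3, at differences from -1.65 to -1.82. Without the tumour labelled control 2 both were called (-2.17, adjusted p = 0.0267 and -1.65, adjusted p = 0.0121). That fit called 233 genes lower and 179 higher. The call of Sfrp2 ended when the skeletal muscle list entered the fit (adjusted p = 0.0724) and when each probe set was tested on its own (adjusted p = 0.0583, with 0.247% of 14572 probe sets called lower), with Sfrp4 called in both.

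Sfrp1, whose loss is known in breast cancer, read 9.64, 9.09 and 9.67 in controls and 8.22, 8.55 and 8.85 in KD tumours on its brightest probe set. The groups were separate, with means of 9.47 ± 0.33 and 8.54 ± 0.32 (SD, n = 3 each) and a difference of -0.93 (SE 0.23; limma adjusted p = 0.147). Its other probe sets differed by -0.62, -0.45 and, on a dim one, -0.95, and on each of the 4 all KD tumours were below all controls. The 4 share their gene and their tumours and are no replicates of each other. Sfrp1 was called without the tumour labelled control 2 (adjusted p = 0.0287), with array weights (adjusted p = 0.00520) and with the mean of its probe sets (-0.74; adjusted p = 0.0451). Array weights called 690 genes lower and 986 higher over all 9248, and the fit without that tumour 233 and 179. With the mean of probe sets 58 genes were called lower and 17 higher. With control 1, control 3 or any 1 of the KD tumours left out Sfrp1 was not called (limma adjusted p from 0.231 to 0.442). Those fits called 0 to 57 of all genes lower.

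Sfrp5, known from fat tissue, read 6.76, 6.92 and 6.80 in controls and 6.98, 6.75 and 6.88 in KD tumours, a difference of 0.04 (95% interval -0.24 to 0.33). Its groups overlapped, and the interval leaves out a measured difference of the size seen for Sfrp1. Sfrp5 has 1 probe set, with a control mean of 6.83 against 9.47 for Sfrp1, so the sizes may not be comparable. Dkk3, a divergent Dkk protein whose action on Wnt is debated, differed by -0.10 (95% interval -0.67 to 0.48), with control 1 the lowest of the 6 at 7.29.

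The remaining antagonists, Dkk1, Dkk2, Dkk4, Frzb and Wif1, were dim. Wif1, which traps Wnt ligands, read 4.32, 5.30 and 4.55 in controls and 4.27, 4.01 and 3.64 in KD tumours. Its groups did not overlap, with control 1 and KD tumour 1 close together, and the difference of -0.75 (no filter, limma adjusted p = 0.348) lies wholly below the dim level. Frzb was the only antagonist besides Sfrp5 with a positive difference (0.22), and its groups overlapped.

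**Figure D3:**
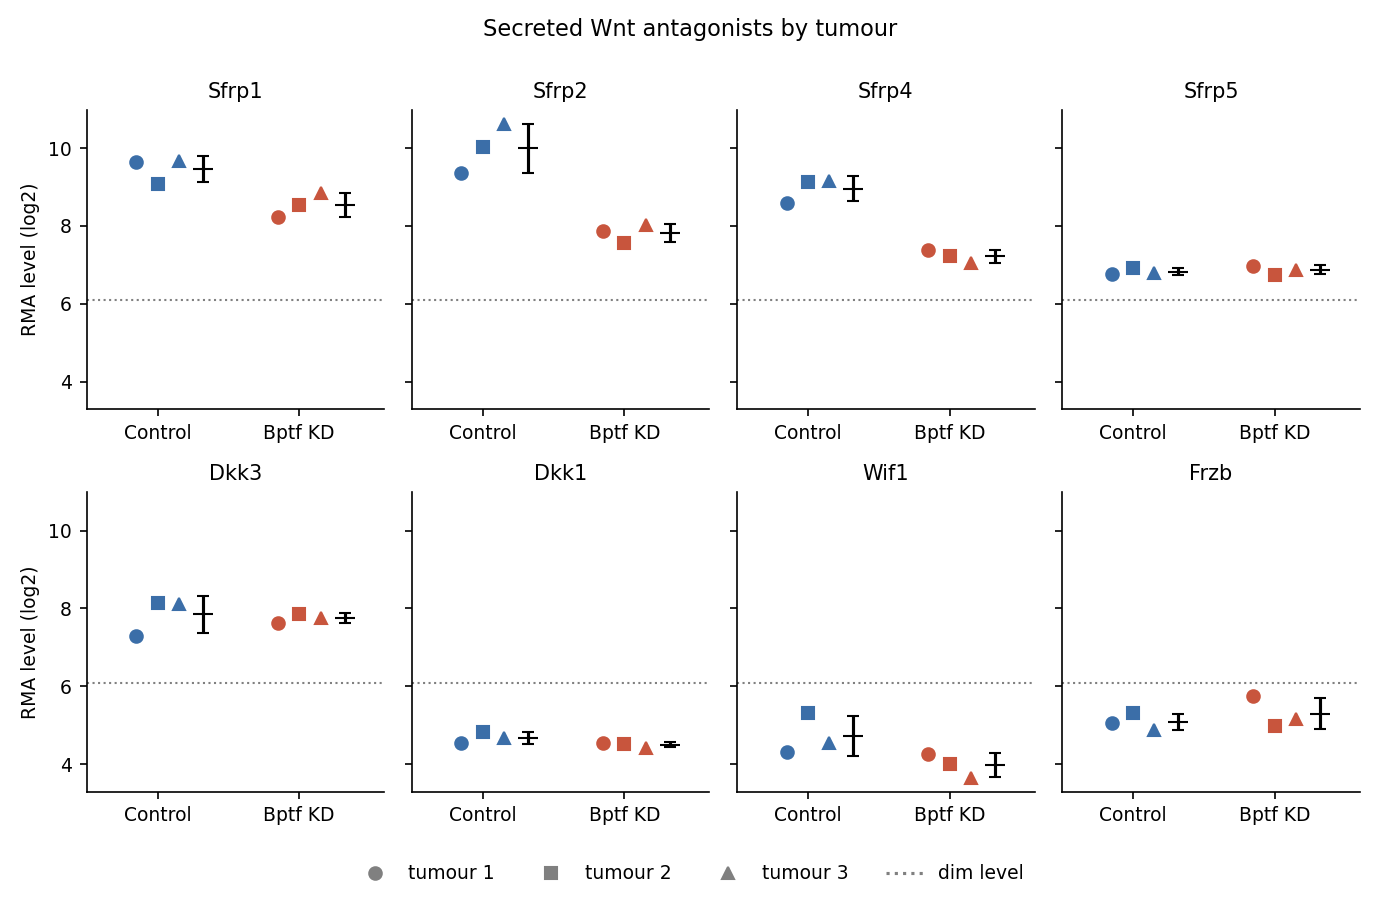
Log2 RMA level of 8 of the 10 secreted antagonist genes in each tumour, with the group mean and SD in black and the dim level of 6.09 as a dotted line. The Bptf KD points lie below all Control points for Sfrp1, Sfrp2, Sfrp4 and the dim gene Wif1, and the groups overlap for Sfrp5, Dkk3, Dkk1 and Frzb.

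Markers of fibroblasts and of fat cells were lower in the same tumours as the Sfrp genes. Of 10 fibroblast and matrix markers 9 were measured and all 9 had negative differences, 5 of them called lower by limma (Col1a1, Col3a1, Col6a3, Dcn and Dpt), with a median of -1.22. Their summed level on the linear scale was 66028 to 75318 in controls and 29724 to 36005 in KD tumours. All 8 measured adipocyte markers of 10 were negative too, 5 called lower, and their summed level was 16574 to 30402 in controls and 2134 to 3890 in KD tumours. Over all genes 0.660% were called lower, and both lists were chosen with earlier results of these data known. None of these markers was dim by its mean over the 6 arrays, but Cidec (called), Lep and Pparg lay below the dim level in all 3 KD tumours and were tested only through their controls. Pdgfra, a receptor that marks fibroblasts, differed by -0.24 (limma adjusted p = 0.736), and by -0.47 without the tumour labelled control 2 (adjusted p = 0.153).

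The tumours are bulk tissue, so fewer cells of a type and less RNA per cell cannot be told apart. The mean level of the fibroblast list was 12.1 to 12.3 in controls and 10.7 to 11.1 in KD tumours, groups that do not overlap. With that mean as a covariate limma called 0 of 9248 genes, and the differences were -0.50 for Sfrp2 (95% interval -4.67 to 3.68), -2.16 for Sfrp4 (-4.89 to 0.56), 1.13 for Sfrp1 (-1.31 to 3.57) and -0.03 for Fzd4 (-3.03 to 2.97). With intervals of that width, the list and the knockdown cannot be told apart for these genes. The 7 mammary epithelial tumour cell markers had a median difference of 0.23, with 6 positive and 0 called. Among them Cldn4 (1.86; limma adjusted p = 0.107) and Epcam (0.96; adjusted p = 0.263) were higher in every KD tumour than in any control, while Krt8 differed by 0.02. The 6 macrophage markers had a median of 0.15 (-0.06 without the tumour labelled control 2) and did not move one way. The groups were apart and lower for Mrc1 (-0.75; limma adjusted p = 0.136). They were apart and higher for C1qa (0.26; adjusted p = 0.423) and C1qb (0.40; adjusted p = 0.301), and overlapped for Adgre1, Cd68 and Csf1r. The 12 skeletal muscle markers were all negative (median -1.44, 0 called), with the highest mean, 11.9, in the tumour labelled control 2, and their median was -0.05 without it.

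**Figure D4:**
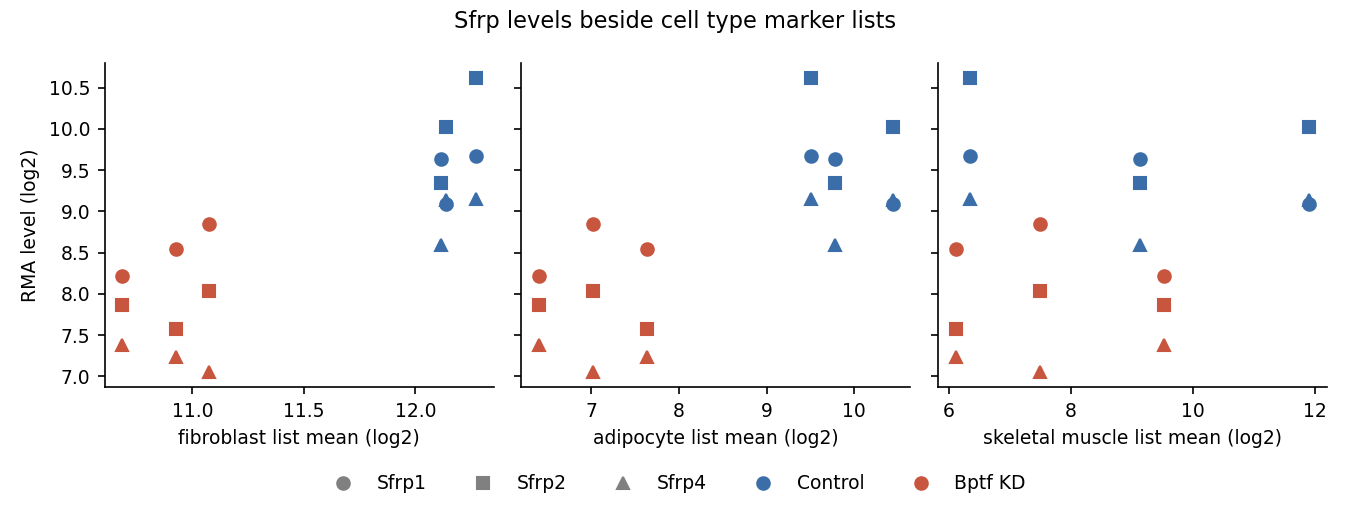
Log2 RMA level of Sfrp1, Sfrp2 and Sfrp4 in each tumour against the mean log2 level of the fibroblast and matrix, adipocyte and skeletal muscle marker lists in that tumour. Controls and Bptf KD tumours form separate groups along the fibroblast and adipocyte lists and mix along the muscle list, and no correlation is given because the points fall into the 2 groups.

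Inside the cell, none of the tested members was called. Ctnnb1, beta-catenin itself, read 13.69, 13.47 and 13.62 in controls and 13.70, 13.53 and 13.50 in KD tumours. The groups overlapped, with a difference of -0.02 (95% interval -0.31 to 0.28; limma adjusted p = 0.974) whose sign changed between probe sets (up to 0.21). Axin1, the scaffold of the destruction complex, differed by 0.05 (95% interval -0.20 to 0.31).

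Apc, the tumour suppressor of that complex, was lowest in the tumour labelled control 2, at 8.79 against 9.68 and 9.69 in the other controls and 9.23 to 9.37 in KD tumours. Its difference was -0.09 with that tumour and -0.39 without it (limma adjusted p = 0.0820). Of the nuclear factors, Tcf7l2 showed the same, at 6.84 there, 8.13 and 7.82 in the other controls and 7.43 to 7.70 in KD tumours, with differences of -0.06 and -0.44 (adjusted p = 0.119 without it). Tcf7l1, which acts mostly as a repressor, differed by -0.19, and by -0.36 without that tumour (limma adjusted p = 0.141). Lef1 was dim, at 3.91 to 4.54 in controls and 4.02 to 4.24 in KD tumours.

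The feedback and target genes, 5 of which had means above the dim level, did not pass the threshold in either direction. Axin2, which beta-catenin induces and which then restrains the pathway, read 6.72, 6.80 and 6.96 in controls and 6.75, 6.74 and 6.63 in KD tumours. The groups overlapped, with a difference of -0.12 (95% interval -0.40 to 0.16; limma adjusted p = 0.736). Nkd1, a Dishevelled-binding inhibitor, read 6.06, 6.31 and 6.04 in controls and 6.21, 6.28 and 5.87 in KD tumours. These values lie on both sides of the dim level, and Nkd1 differed by -0.02 (95% interval -0.39 to 0.35). Its relative Nkd2 read 6.84, 7.14 and 6.59 in controls and 7.22, 7.12 and 7.19 in KD tumours, with a difference of 0.32 (adjusted p = 0.459).

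Ccn4 and Ccn5, matricellular proteins first described as Wnt1-induced, had differences of opposite sign. Ccn4 read 8.72, 8.23 and 8.87 in controls and 9.11, 8.75 and 9.28 in KD tumours. Its groups overlapped, with a difference of 0.44 (95% interval -0.07 to 0.95; limma adjusted p = 0.449) that was 0.25 without the tumour labelled control 2. Ccn5 read 9.24, 9.44 and 9.14 in controls and 8.99, 8.96 and 8.61 in KD tumours. Every KD tumour was below every control, and the difference of -0.42 (SE 0.15) had an adjusted p of 0.323 by limma.

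Other genes of the pathway, taken from a list fixed with the design, gave 1 call among 40 tested of 57, lower, and 0 higher by limma, where 0.660% and 0.151% of all genes were called. Unadjusted p-values under 0.05 were found for 3 lower and 3 higher of the 40, near the 5.82% and 7.66% of all genes. The call was Gpc3, a glypican of the cell surface that can bind Wnt ligands. It read 7.61, 7.93 and 8.15 in controls and 6.76, 6.69 and 6.80 in KD tumours, with the groups apart and a difference of -1.15 (SE 0.16; limma adjusted p = 0.0434). The call ended without control 3 (adjusted p = 0.116) and without KD tumours 1, 2 and 3 (0.176, 0.181 and 0.167). Over all genes those fits called 10, 2, 5 and 0 lower, against 61 with all tumours. The Gpc3 call also ended when the muscle list entered the fit (0.0724), with the fibroblast list in it (1) and with each probe set tested on its own (0.0576).

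Notum, a secreted enzyme that removes the lipid from Wnt proteins and is itself a feedback gene, read 7.31, 6.56 and 7.23 in controls and 7.65, 8.24 and 8.05 in KD tumours. The KD tumours were all higher, with the lowest value in the tumour labelled control 2, and the difference was 0.95 (95% interval 0.36 to 1.53; limma adjusted p = 0.173). Lgr5, a receptor for R-spondins and a target gene, was named after its values were seen. It read 6.54, 6.31 and 7.42 in controls and 5.74, 5.40 and 6.13 in KD tumours, with the groups apart and means of 6.76 and 5.76 (limma adjusted p = 0.255). The KD mean is below the dim level, so Lgr5 too was tested only through its controls.

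The corepressor Tle5 (listed as Aes) differed by 0.59 (limma adjusted p = 0.195) and the kinase Csnk1e by 0.50 (limma adjusted p = 0.205). The groups were apart and higher in both. Tle5 was called without the tumour labelled control 2 (0.71, limma adjusted p = 0.0430), in a fit that called 233 genes lower and 179 higher. By place in the pathway, the median difference was 0.06 over the 12 tested genes of membrane and secretion, 0.12 over 12 of the cytoplasm, 0.12 over 10 of the nucleus and -0.16 over 6 further targets, beside 0.06 over all genes. Without the tumour labelled control 2 these medians were -0.02, 0.13, 0.0025 and -0.25. The median over all genes without that tumour is not given here, so a shift common to all genes cannot be told apart.

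**Figure D5:**
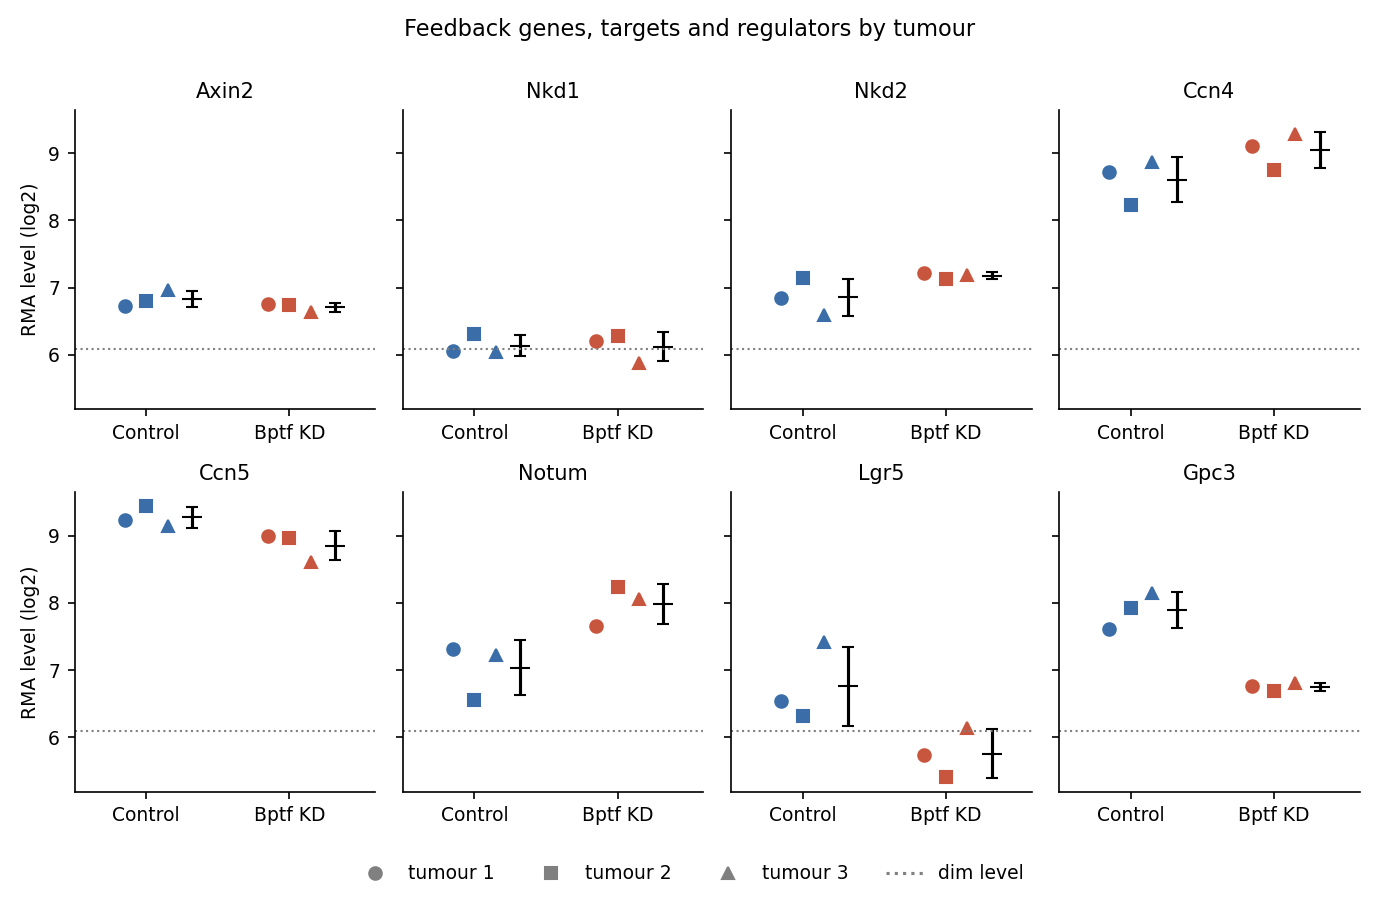
Log2 RMA level of the 5 feedback and target members and of Notum, Lgr5 and Gpc3 in each tumour, with the group mean and SD in black and the dim level as a dotted line. Axin2, Nkd1, Nkd2 and Ccn4 overlap between groups, Ccn5, Lgr5 and Gpc3 are lower in all Bptf KD tumours, and Notum is higher in all of them.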

How the data were processed

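RNA of 6 tumours (500 ng each, 1 array per tumour) was measured. The deposited values are log2 expression levels made by the authors with RMA, per the submitters' processing notes. The sources used here do not give the version, genome build or log base, and base 2 was taken because values ran from 2.98 to 15.17. Of 22690 probe sets, 20380 had 1 gene in GEO's platform annotation, 691 several and 1555 none, and 64 were controls. Symbols were matched to RefSeq by Entrez identifier (0 changed, 29 probe sets unmatched).

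The brightest probe set stood for a gene, and the lowest 30% of probe sets by mean were left out, which left 9248 genes. The test of Bptf KD minus Control used lmFit and eBayes of limma 3.58.1 (R 4.3.3) with no covariate and a threshold of 0.05. The labels speak of triplicate tumours, so p-values measure the spread between tumours. Whether the KD tumours came from 1 or several knockdown lines is not given, so the p-values may not cover the spread between such lines. Dim members were read from a fit with no filter on 12393 genes. Summed levels are sums of 2 to the power of the log2 value. The number of arrays limits the precision. The Gapdh 3-prime minus 5-prime control difference was -0.08 to 0.06 and that of Actb 0.76 to 1.23, highest in the tumour labelled control 2. In simulated data of 9248 genes with 200 changed, 57.8% of those changed by 1 log2 unit and 90.1% by 2 were recovered. Of the calls there 5.45% were false. The simulated noise was independent between genes and equal in spread across tumours, with no tumour set apart like the one labelled control 2. The recovery in the real data can therefore differ.

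The members, roles, lists and alternatives were chosen with earlier results of these data known. Named with values are members called, the 4 smallest p of each role, the 3 brightest members, Axin2, Lef1, Tcf7 and Ctnnb1, members whose probe sets differ in sign by over 0.5 (none did), Bptf, and the called and 4 smallest p of the other pathway genes. Members named beyond these, and Lgr5 and the cell type markers given singly, were chosen after their values were seen. Alternatives were filters, probe set choice, normalisation, eBayes settings, array weights, replicate block, 2 covariates and leaving out each tumour.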

Additional observations from a re-analysis of the deposited data

How the results depend on the processing

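Of 26 named genes followed through the alternatives, 15 kept their direction in each of the 18 alternatives in which they could be fitted, Sfrp2, Sfrp4, Fzd4 and Gpc3 among them. With all tumours kept, genes called lower and higher (61 and 14) became 37 and 5 with the lowest 50% of probe sets left out, 31 and 2 with each probe set tested, 690 and 986 with array weights, 38 and 8 with the muscle covariate and 0 and 0 with the fibroblast covariate. The higher count was 9 with the probe set of largest SD and 9 with a second quantile normalisation. Members called lower (2) became 1 with each probe set tested and 1 with the muscle covariate, 0 with the fibroblast covariate and 5 with array weights, where 2 were called higher. The members' median was -0.023 with the mean of probe sets, 0.037 with the largest SD, -0.019 with array weights and -0.025 with the muscle covariate. Leaving out each tumour gave 0 to 233 genes lower, 0 to 179 higher, 0 to 4 members lower, 0 higher, and member medians from -0.073 to 0.013.

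Deviations from the group mean correlated at 0.0054, 0.279 and 0.372 between same-numbered tumours. With 3 tumours a group these values cannot settle whether the numbers pair the tumours. With the replicate number as a block 92 genes were lower and 15 higher, and the members called stayed at 2 lower and 0 higher.

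Bptf differed by -0.88 with array weights (adjusted p = 0.00905) and by 0.68 with the fibroblast covariate, and by -0.92 to -0.46 leaving out each tumour. With the fibroblast covariate the sign also turned for Apc (0.76), Dkk3 (1.05), Nkd2 (-0.29), Porcn (-0.15), Sfrp1 (1.13), Tcf7l1 (0.55), Tcf7l2 (0.75) and Wnt5a (1.13). With the largest SD it turned for Apc (0.16), Ctnnb1 (0.17) and Tcf7l1 (0.15), with array weights for Fzd2 (-0.013) and Fzd6 (-0.016), and for Ctnnb1 with the mean of probe sets (0.12) and a second quantile normalisation (0.013). Leaving out a tumour gave both signs for Apc (-0.39 to 0.058), Ctnnb1 (-0.078 to 0.032), Dkk3 (-0.38 to 0.045) and Tcf7l2 (-0.44 to 0.20). In the test with all tumours, no covariate, no array weights and the brightest probe set per gene, none of these genes was called. With array weights limma called some of them, Sfrp1 (adjusted p = 0.00520), Nkd2 (adjusted p = 0.0148) and Bptf included. Sfrp1 was also called with the mean of probe sets (limma adjusted p = 0.0451). The cause of the turned signs was not tested. With 3 arrays a group the intervals given set what could be told from 0. In simulated data, which held no tumour like that labelled control 2, 57.8% of changes of 1 log2 unit were recovered.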
